A study of Mus musculus with 6 samples.

Results

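Oxidative phosphorylation is carried out by 5 protein complexes of the mitochondrial inner membrane, and the nuclear genes for their subunits were followed here across 3 genotypes. Members were the genes whose symbols name a subunit of complex I (Nduf, without the Ndufaf assembly factors), complex II (Sdha to Sdhd), complex III (Uqcr), complex IV (Cox4 to Cox8) or complex V (Atp5), as reached through the RefSeq accession of each array probe. This rule used no measured value. It found 85 genes on 114 probes among the 55681 probes of the array, of which 84 entered the tests with 19122 genes in all. Complex I had 38 members, complex II 4, complex III 8, complex IV 17 and complex V 17. The remaining gene, Cox7b2, a testis form of a complex IV subunit, was well above background on WT replicate 1 alone and was not tested.

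The samples were growth plates of the tibia, the cartilage through which a long bone lengthens, from untreated male C57BL/6J mice aged 4 weeks. The 3 genotypes were ATF6aKO, labelled as a knockout of ATF6a (gene Atf6), ATF6bKO, labelled as a knockout of ATF6b (gene Atf6b), and WT, with 2 arrays each. Tissue was laser microdissected, and 150 ng of RNA was amplified, labelled with Cy5 and hybridised to Agilent oligonucleotide arrays, so that a value is the brightness of a probe. The labels say neither which part of each gene is deleted nor in which cells, nor how many animals stand behind a genotype's 2 arrays. The p-values describe the spread among these arrays alone, part or all of which may be technical.

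All 4 knockout arrays shared 1 slide, read in 2 channels, while both WT arrays came from a second slide read in 1 channel. For any knockout set against WT, genotype and slide cannot be told apart. ATF6aKO against ATF6bKO was made within 1 slide, where each genotype filled a row of its own. Spots well above background made up 86.9% to 96.7% of an array, and with 2 arrays a genotype the precision is limited. All 84 members were well above background on 4 arrays, 78 on ATF6bKO replicate 2 and 77 on WT replicate 2, and no member was saturated or below background on both arrays of a genotype. Atf6 measured 7.07 and 6.97 (normalised log2 intensity) in ATF6aKO, against 7.05 and 7.28 in WT, and Atf6b measured 8.77 and 8.41 in ATF6bKO, against 9.06 and 9.19 in WT. Neither targeted gene passed the test (limma adjusted p = 0.498 and 0.0824), and whether the probes lie in the deleted parts is not known. Of 10 chondrocyte markers, 9 were well above background on all 6 arrays, with Sox9 the exception. So were 13 of 14 skeletal muscle markers, so this count does not tell tissues apart. Summed over their list, the chondrocyte markers reached 91100 and 103000 on the ATF6aKO arrays, 54600 and 26100 on the ATF6bKO arrays and 15100 and 19600 on the WT arrays (normalised intensity).

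Electrons from NADH enter the chain at complex I and those from succinate at complex II. Complex III passes them from ubiquinol to cytochrome c, complex IV hands them to oxygen, and complex V makes ATP from the proton gradient that complexes I, III and IV build. Growth plate cartilage has few vessels, and its chondrocytes are known for a strong reliance on glycolysis. ATF6a and ATF6b are membrane-bound transcription factors of the endoplasmic reticulum that are cleaved and move to the nucleus when unfolded proteins accumulate. Many promoters of oxidative phosphorylation genes are known to be bound by NRF1, by GABPA of the ETS family, by YY1 and by the oestrogen-related receptors.

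Promoter windows of 300 bases around the annotated start (RefSeq, GRCm38.p6) were held for 68 of the 84 members, in 73 windows. Both strands were searched for fixed letter strings, and a match is a description of the letters only. The string GCATGCGC, part of the NRF1 site, occurred in 13.7% of the members' windows, against 2.71% of all 32851 promoter windows of the table. The ETS string CCGGAAG occurred in 23.3% of the members' windows against 8.86% of all windows, and the YY1 string AAGATGGC in 13.7% against 2.75%. The string TCAAGGTCA of oestrogen-related receptors occurred in 2.74% against 0.423%, and the cyclic AMP response element TGACGTCA in 5.48% against 1.79%. The string TGACGTGG, a core bound by ATF6, was in 0 of the 73 members' windows and in 0.676% of all windows. Of the 68 members, 33 had none of the 6 strings in these windows. By complex, YY1 strings lay in 20% of 35 complex I windows and 16.7% of 18 complex V windows, and in 0 of the windows of complexes II, III and IV.

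The windows printed here belong to members the results below turn on: the members with the largest called rise of complexes I, III, IV and V (Ndufb3, Uqcrh, Cox5b and Atp5l), those of complexes I and II with the smallest p between the knockouts (Ndufc1 and Sdhb), and a muscle form that fell in both knockouts (Cox7a1). Capitals mark matches to GCATGCGC, CCGGAAG and AAGATGGC on either strand, so that CTTCCGG is the ETS string read on the other strand, and each line runs 5′ to 3′ on the strand of its gene.
Ndufb3 (chr1:58586147-58586446, plus strand): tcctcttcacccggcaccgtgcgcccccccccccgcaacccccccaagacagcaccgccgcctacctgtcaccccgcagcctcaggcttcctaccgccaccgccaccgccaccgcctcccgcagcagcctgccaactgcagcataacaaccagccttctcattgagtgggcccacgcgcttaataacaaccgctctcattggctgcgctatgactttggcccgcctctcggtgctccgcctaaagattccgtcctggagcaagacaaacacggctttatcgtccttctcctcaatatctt
Ndufc1 (chr3:51408906-51409205, minus strand): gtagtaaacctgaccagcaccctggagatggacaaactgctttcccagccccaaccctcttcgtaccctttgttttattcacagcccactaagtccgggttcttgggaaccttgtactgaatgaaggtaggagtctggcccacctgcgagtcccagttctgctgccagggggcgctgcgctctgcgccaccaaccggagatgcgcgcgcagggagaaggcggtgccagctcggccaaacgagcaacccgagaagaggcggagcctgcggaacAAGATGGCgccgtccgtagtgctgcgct
Sdhb (chr4:140961021-140961320, plus strand): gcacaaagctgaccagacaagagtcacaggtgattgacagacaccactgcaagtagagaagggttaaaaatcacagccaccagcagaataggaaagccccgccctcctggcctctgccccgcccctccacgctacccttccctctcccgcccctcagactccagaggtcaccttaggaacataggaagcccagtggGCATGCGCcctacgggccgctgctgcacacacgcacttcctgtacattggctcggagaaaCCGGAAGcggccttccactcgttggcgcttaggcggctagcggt
Uqcrh (chr4:116075021-116075320, minus strand): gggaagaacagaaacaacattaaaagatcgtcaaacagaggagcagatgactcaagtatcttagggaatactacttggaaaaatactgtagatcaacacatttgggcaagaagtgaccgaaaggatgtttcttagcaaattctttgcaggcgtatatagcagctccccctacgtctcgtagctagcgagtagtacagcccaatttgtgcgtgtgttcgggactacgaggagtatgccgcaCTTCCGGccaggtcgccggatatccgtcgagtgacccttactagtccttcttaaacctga
Cox5b (chr1:36691237-36691536, plus strand): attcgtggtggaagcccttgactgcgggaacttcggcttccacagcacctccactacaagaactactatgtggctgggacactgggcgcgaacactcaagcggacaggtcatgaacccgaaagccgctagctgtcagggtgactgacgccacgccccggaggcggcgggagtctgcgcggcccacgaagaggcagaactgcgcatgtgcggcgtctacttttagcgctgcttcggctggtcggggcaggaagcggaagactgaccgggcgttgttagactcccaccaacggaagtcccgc
Cox7a1 (chr7:30183921-30184220, plus strand): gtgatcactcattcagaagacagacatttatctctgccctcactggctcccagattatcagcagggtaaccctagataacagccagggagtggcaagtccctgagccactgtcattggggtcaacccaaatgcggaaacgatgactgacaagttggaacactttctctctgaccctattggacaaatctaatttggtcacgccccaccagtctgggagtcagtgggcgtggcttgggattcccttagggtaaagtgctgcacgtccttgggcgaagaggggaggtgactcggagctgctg
Atp5l (chr9:44920693-44920992, minus strand): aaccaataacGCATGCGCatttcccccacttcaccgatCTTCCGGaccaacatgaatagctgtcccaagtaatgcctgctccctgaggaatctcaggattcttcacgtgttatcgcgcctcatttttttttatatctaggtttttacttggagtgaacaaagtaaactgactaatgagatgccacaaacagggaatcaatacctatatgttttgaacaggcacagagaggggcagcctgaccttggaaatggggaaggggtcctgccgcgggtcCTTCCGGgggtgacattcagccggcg

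By the median of all members the ATF6aKO arrays stood above the ATF6bKO arrays, and the WT arrays lay on both sides of the ATF6bKO arrays. Each gene's values were set against its mean over the 6 arrays, and the median deviation of the 84 members was 0.2 and 0.54 (log2) on the ATF6aKO arrays, -0.13 and -0.25 on the ATF6bKO arrays, and 0.1 and -0.41 on the WT arrays. Over all genes tested the same medians lay between -0.03 and 0.03. The WT arrays differed from each other, with WT replicate 1 above WT replicate 2 in 65 of 84 members and a median gap of 0.39 over all members. WT replicate 1 also stood apart in markers of other cells. The summed normalised intensity of 8 erythroid markers was 1490 to 1750 on the knockout arrays, 31500 on WT replicate 1 and 6060 on WT replicate 2. For 6 osteoblast and osteocyte markers it was 1200 to 1520 on the knockout arrays, 26100 on WT replicate 1 and 2020 on WT replicate 2, and for 8 osteoclast markers 3610 to 4010, 18600 and 3720. Of these lists 6 of 8, 3 of 6 and 6 of 8 markers were well above background on all arrays, and those that were not included Hbb-bs, Col1a1 and Ctsk. The part of these markers in the differences from WT was not tested, and results without WT replicate 1 are given below. ATF6aKO replicate 1 was above its replicate 2 in 15 members, and ATF6bKO replicate 1 above its replicate 2 in 60. Complex V had the widest spread, with medians of 0.33 and 0.74 on the ATF6aKO arrays, -0.18 and -0.36 on the ATF6bKO arrays and 0.09 and -0.85 on the WT arrays.

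**Figure D1:**
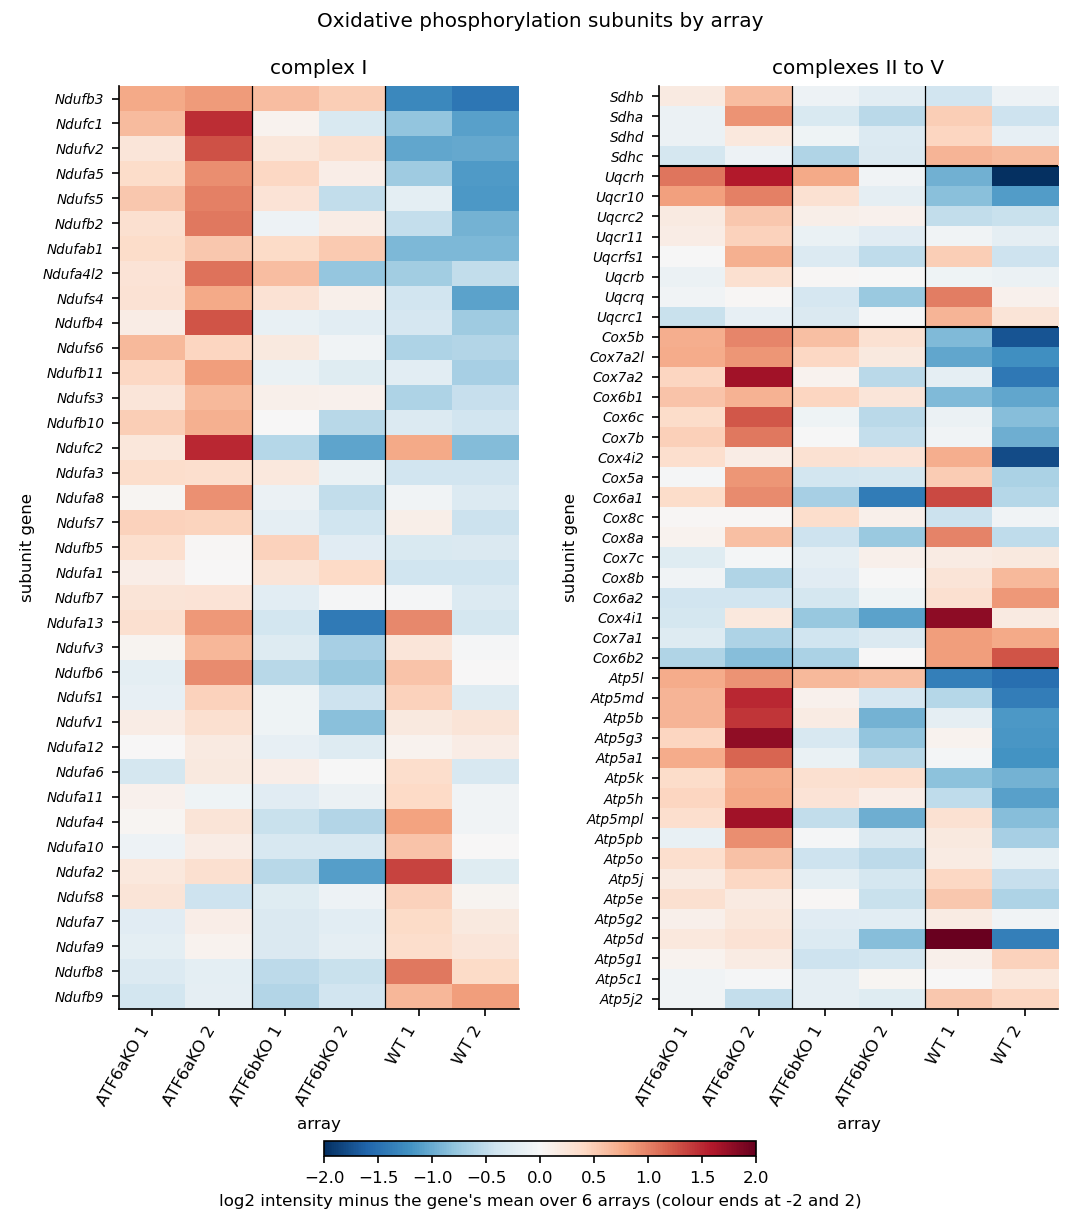
Each row is a subunit gene (83 of the 84 members are drawn) and each column an array, with the normalised log2 intensity minus the gene's mean over 6 arrays in colour (red above the mean, blue below). Within each complex, genes are ordered by ATF6aKO minus WT. ATF6aKO replicate 2 is the reddest column (median deviation 0.54 over the 84 members) and WT replicate 2 the bluest (-0.41).

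**Figure D2:**
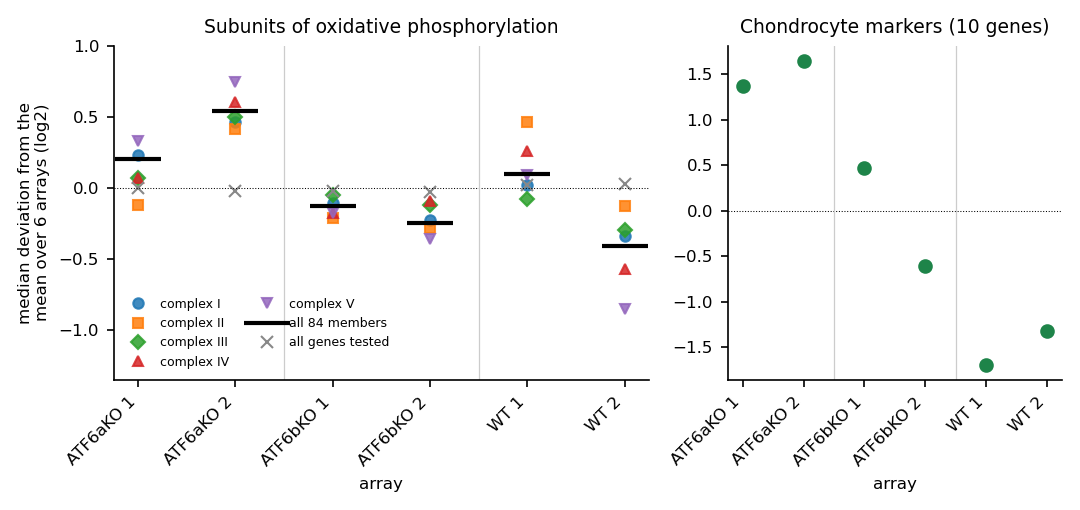
Left, the median deviation of each complex, of all 84 members (bars) and of all genes tested (crosses) from the mean over 6 arrays, in log2 units by array. Right, the same median for 10 chondrocyte markers, at 1.37 and 1.65 on the ATF6aKO arrays, 0.47 and -0.61 on the ATF6bKO arrays and -1.69 and -1.32 on the WT arrays.

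In ATF6aKO growth plates more subunit genes rose than fell relative to WT. Of 84 members 32 were called higher (38.1%) and 9 lower, where called means a Benjamini-Hochberg adjusted p under 0.05 in limma over all genes. Over all 19122 genes, 20.3% were called higher and 22.3% lower. The members' median log2 difference was 0.44, beside -0.03 over all genes. Complex I had 15 higher and 2 lower members, complex II 1 and 1, complex III 3 and 1, complex IV 6 and 4, and complex V 7 and 1, with median log2 differences of 0.48, 0.14, 0.37, 0.28 and 0.64. Every complex thus held members that rose and members that fell. Without ATF6aKO replicate 2 the calls numbered 18 higher and 5 lower, with 12.2% of all genes called in each direction, and without WT replicate 2 the median was 0.19, with those of complexes II and IV at -0.24 and -0.3. Without WT replicate 1 the median of all members was 0.79. With arrays scaled to their 75th percentile instead of quantile normalised, 36 members (27% of all genes) were called higher and 10 (18.8%) lower, and the median was 0.56, beside 0.13 over all genes. Markers of cell types moved as well. Of 10 chondrocyte markers 9 were called higher (median log2 difference 2.92). Of 8 endothelial markers 4 were called lower (median -0.92), and of 6 osteoblast and osteocyte markers 2 (-1.12). Of 7 macrophage markers 1 was called higher and 5 lower (-0.75), and of 8 erythroid markers 2 higher and 3 lower (-0.79). The summed normalised intensity of the macrophage markers was nevertheless higher in ATF6aKO, at 14900 and 10600, against 9590 and 9370 in WT. The part of all these markers in the result was not tested. Fewer cells of a type and less RNA per cell cannot be told apart in this tissue RNA.

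In ATF6bKO the rises and falls relative to WT were close to even. Of 84 members 17 were called higher (20.2%) and 13 lower (15.5%), beside 17.3% and 20.3% of all genes, and these shares lie near the background. The members' median log2 difference was -0.13, beside -0.05 over all genes. Complex I had 8 higher and 5 lower members, complex II 0 and 1, complex III 3 and 1, complex IV 3 and 4, and complex V 3 and 2. The medians were -0.05, -0.38, 0.03, -0.22 and -0.16. Leaving out ATF6bKO replicate 1 left 7 higher and 5 lower calls (7.88% and 8.23% of all genes), and leaving out its replicate 2 left 10 and 5 (9.46% and 10.4%). With WT replicate 1 left out the median was 0.14, and with WT replicate 2 left out it was -0.33. With 75th percentile scaling 19 members (25.2% of all genes) were higher and 11 (16%) lower, and the median was -0.01, beside 0.16 over all genes, with complexes I and V at 0.01 and 0.17. Of the chondrocyte markers 5 were called higher and 1 lower (median 1.42). Of the endothelial and of the osteoblast and osteocyte markers 4 and 2 were called lower (medians -0.88 and -1.07). Of the macrophage markers 1 was called higher and 4 lower (-0.75), and of the erythroid markers 2 higher and 3 lower (-0.78). The macrophage sum was 13500 and 12800 in ATF6bKO, against 9590 and 9370 in WT. The part of all these markers was not tested. This comparison shares the WT arrays with the one before it.

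**Figure D3:**
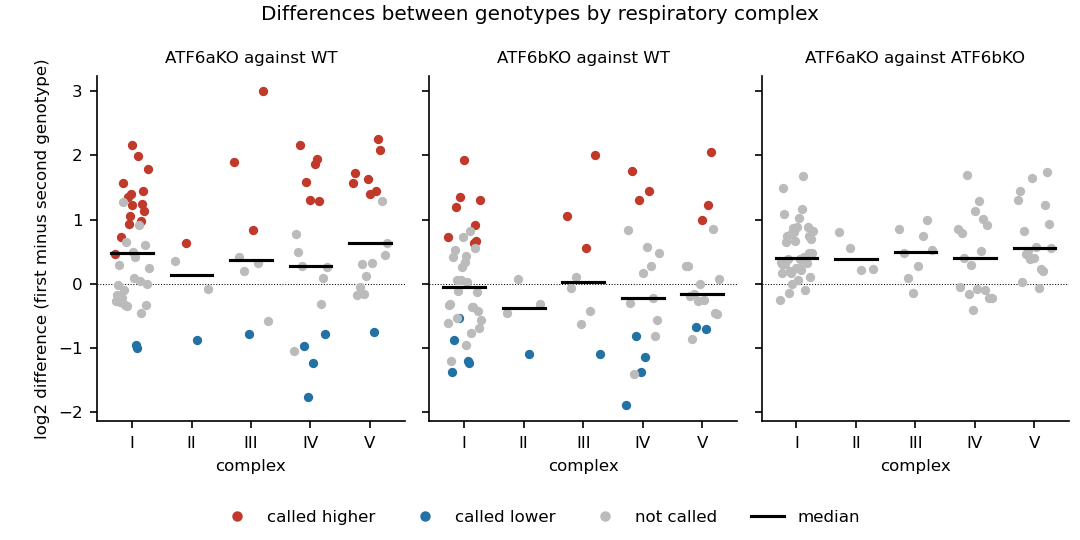
Log2 differences of the 84 members by complex in the 3 comparisons, first genotype minus the second. Points are genes, coloured by the limma call at an adjusted p under 0.05, and black lines are medians. In ATF6aKO against ATF6bKO no member was called, and the medians of the 5 complexes lie between 0.39 and 0.55.

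Directly compared within the slide, ATF6aKO lay above ATF6bKO for most subunits, by amounts that did not pass the test gene by gene. The log2 difference was positive in 71 of 84 members, with a median of 0.48, beside 9381 of 19122 genes and a median of 0. Called genes numbered 0 of 84 members and 0 of 19122 genes (0%), and the lowest adjusted p of a member in limma was 0.625. At an unadjusted p under 0.05, 32 members were higher in ATF6aKO (38.1%, beside 5.09% of all genes) and 0 lower (beside 1.02%). Both ATF6aKO arrays exceeded both ATF6bKO arrays in 57 members (67.9%, beside 20.1% of all genes) and lay below both in 3 (3.57%, beside 16.9%). The 3 below were Ndufa1, Cox6a2 and Cox8c, named after their values were seen. By complex the members above numbered 25 of 38, 2 of 4, 6 of 8, 10 of 17 and 14 of 17, from I to V, and the medians were 0.4, 0.39, 0.5, 0.4 and 0.55. The chondrocyte markers moved the same way, with a median log2 difference of 1.58. In all 10 of them both ATF6aKO arrays exceeded both ATF6bKO arrays, and none was called. ATF6bKO replicate 2, the lowest of the 4 knockout arrays for these markers, also had the fewest spots above background. The part of the chondrocyte markers in the result was not tested. With either ATF6bKO array left out, 64 or 62 members had the remaining ATF6bKO array below both ATF6aKO arrays, beside 34.3% or 31.5% of all genes.

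Complex I was represented by subunits of both arms. Ndufb3, an accessory subunit of the membrane arm, measured 11.56 and 11.66 on the ATF6aKO arrays, 11.42 and 11.30 on the ATF6bKO arrays and 9.51 and 9.36 on the WT arrays. Both knockouts lay above WT on every array, and ATF6aKO lay above ATF6bKO. Ndufb3 rose by 2.17 ± 0.16 in ATF6aKO (SE; limma adjusted p = 0.000463) and by 1.93 ± 0.16 in ATF6bKO (adjusted p = 0.00065), which made it the complex I member with the largest called rise in both. Its promoter window, printed above, held none of the 6 strings.

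Ndufc1, a small membrane-arm subunit, measured 9.52 and 10.35 on the ATF6aKO arrays, 8.95 and 8.58 on the ATF6bKO arrays and 8.09 and 7.79 on the WT arrays. All 3 genotypes were apart for it, in the order ATF6aKO, ATF6bKO, WT. The log2 difference was 1.99 ± 0.29 between ATF6aKO and WT (SE; limma adjusted p = 0.00205), 0.82 ± 0.29 between ATF6bKO and WT (adjusted p = 0.0575) and 1.17 ± 0.29 between the knockouts (adjusted p = 0.625). It had the smallest p of complex I between the knockouts.

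Of the core subunits of complex I, Ndufv2 and Ndufs3 rose in both knockouts. Ndufv2 measured 8.45 and 9.48 on the ATF6aKO arrays, 8.44 and 8.53 on the ATF6bKO arrays and 7.17 and 7.19 on the WT arrays, with both knockouts above WT and overlapping each other. Its log2 difference from WT was 1.79 ± 0.3 in ATF6aKO and 1.3 ± 0.3 in ATF6bKO (SE; limma adjusted p = 0.0036 and 0.0137). Ndufs3 measured 8.83 and 9.24 on the ATF6aKO arrays, 8.69 and 8.67 on the ATF6bKO arrays and 7.98 and 8.13 on the WT arrays, with differences from WT of 0.98 ± 0.19 and 0.63 ± 0.19 (limma adjusted p = 0.00556 and 0.0333). Without either ATF6bKO array the calls of Ndufv2 and Ndufs3 in ATF6bKO were lost, at 1.35 and 1.26 for Ndufv2 and 0.62 and 0.64 for Ndufs3, and that of Ndufs3 also without WT replicate 1, at 0.55.

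Among the other core subunits of complex I, Ndufv1, Ndufs1, Ndufs7 and Ndufs8 passed no test. Ndufv1, which carries the flavin that takes electrons from NADH, measured 7.46 and 7.63 on the ATF6aKO arrays, 7.23 and 6.48 on the ATF6bKO arrays and 7.51 and 7.58 on the WT arrays. Ndufs1, the largest iron-sulphur subunit, measured 7.33 and 7.96 on the ATF6aKO arrays, 7.4 and 7.07 on the ATF6bKO arrays and 7.96 and 7.23 on the WT arrays. In Ndufs1 the WT arrays alone spanned most of the range of the knockouts, whereas in Ndufv1 ATF6bKO replicate 2 stood lowest. Ndufs7 measured 8.56 and 8.54 on the ATF6aKO arrays, 7.91 and 7.69 on the ATF6bKO arrays and 8.21 and 7.66 on the WT arrays and Ndufs8 7.28 and 6.62 on the ATF6aKO arrays, 6.78 and 6.92 on the ATF6bKO arrays and 7.49 and 7.08 on the WT arrays, both of them iron-sulphur subunits of the peripheral arm. For Ndufs7 the ATF6aKO arrays lay above all others, and for Ndufs8 ATF6aKO spanned the ATF6bKO values.

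Falls in complex I were fewer. Ndufb9, an accessory membrane-arm subunit, measured 7.63 and 7.82 on the ATF6aKO arrays, 7.41 and 7.61 on the ATF6bKO arrays and 8.66 and 8.83 on the WT arrays, so that WT was above all 4 knockout arrays. It fell by 1.01 on the log2 scale in ATF6aKO and by 1.23 in ATF6bKO (limma adjusted p = 0.00351 and 0.00218). Ndufb8 was called lower in both knockouts as well, at -0.95 ± 0.23 and -1.2 ± 0.23 (SE). Ndufa2 measured 9.53 and 9.64 on the ATF6aKO arrays, 8.76 and 8.22 on the ATF6bKO arrays and 10.66 and 9.08 on the WT arrays; its fall in ATF6bKO, -1.38 ± 0.46 (SE; limma adjusted p = 0.0481), was lost without WT replicate 1, at -0.59, and without either ATF6bKO array, at -1.65 and -1.11. Ndufa9 was called lower in ATF6bKO alone among the 2 comparisons with WT, at -0.53 ± 0.17 (SE), against -0.35 ± 0.17 in ATF6aKO, and both knockouts lay below WT for it.

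Among the remaining complex I members, called rises in ATF6aKO were between 0.47 in Ndufa1 and 1.57 in Ndufa5, and they included Ndufa3, Ndufb2, Ndufb4, Ndufb10, Ndufb11, Ndufs4, Ndufs5, Ndufs6 and Ndufab1. Ndufab1, the acyl carrier protein of mitochondria, measured 9.18 and 9.35 on the ATF6aKO arrays, 9.19 and 9.34 on the ATF6bKO arrays and 7.92 and 7.91 on the WT arrays and differed from WT by 1.35 ± 0.16 in both knockouts (SE; limma adjusted p = 0.00113 and 0.00137). The knockouts overlapped each other for Ndufab1, with a difference of 0.0 ± 0.16. In ATF6bKO, Ndufa1, Ndufa5, Ndufs4 and Ndufs6 were called higher as well, at 0.73, 1.19, 0.92 and 0.66. The other probe of Ndufa5 went the other way, at -0.68 in ATF6aKO and -1.08 in ATF6bKO with no call, and that of Ndufb11 gave -0.33 and -0.3. Ndufa6, Ndufa7, Ndufa8, Ndufa10, Ndufa11, Ndufa12, Ndufa13, Ndufb5, Ndufb6, Ndufb7, Ndufc2 and Ndufv3 had no call in either comparison with WT, with differences from -0.34 in Ndufa7 to 0.92 in Ndufc2 for ATF6aKO and from -1.2 in Ndufa13 to 0.43 in Ndufb5 for ATF6bKO.

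Ndufa4 and its paralogue Ndufa4l2, which hypoxia is known to induce, carry complex I names although mammalian Ndufa4 copurifies with complex IV. Ndufa4 measured 7.13 and 7.34 on the ATF6aKO arrays, 6.65 and 6.51 on the ATF6bKO arrays and 7.89 and 7.02 on the WT arrays and was called lower in ATF6bKO, -0.88 ± 0.28 (SE; limma adjusted p = 0.0404), a call lost without either ATF6bKO array, at -0.94 and -0.81, and without WT replicate 1, at -0.44. Ndufa4l2 measured 8.22 and 9.03 on the ATF6aKO arrays, 8.56 and 7.18 on the ATF6bKO arrays and 7.25 and 7.46 on the WT arrays. Its ATF6aKO arrays were above WT by 1.27 ± 0.44 (SE; limma adjusted p = 0.0512), just short of the threshold, and ATF6bKO overlapped both.

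The 4 subunits of complex II moved in different ways. Sdhb, the iron-sulphur subunit and the one with the smallest p between the knockouts, measured 8.66 and 9.09 on the ATF6aKO arrays, 8.37 and 8.27 on the ATF6bKO arrays and 8.09 and 8.38 on the WT arrays, and both ATF6aKO arrays were above all others. It rose by 0.63 ± 0.2 in ATF6aKO relative to WT (SE; limma adjusted p = 0.0388), and its difference between the knockouts was 0.55 ± 0.2 (adjusted p = 0.737). A dimmer probe of Sdhb went the other way relative to WT and was called lower in both knockouts, at -1.28 in ATF6aKO and -1.3 in ATF6bKO. The mean of both probes gave -0.32 in ATF6aKO. The called rise of the brightest probe was also lost without ATF6aKO replicate 2, at 0.42, and without WT replicate 1, at 0.49.

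Sdhc, a membrane anchor of complex II, measured 7.37 and 7.62 on the ATF6aKO arrays, 7.12 and 7.43 on the ATF6bKO arrays and 8.4 and 8.35 on the WT arrays. WT was above all 4 knockout arrays, and the difference from WT was -0.88 ± 0.18 in ATF6aKO and -1.1 ± 0.18 in ATF6bKO (SE; limma adjusted p = 0.00774 and 0.00388). Its other probe gave 0.2 and 0.03, and the mean of the probes -0.34 in ATF6aKO, where the call was lost. Sdha, the flavoprotein that oxidises succinate, measured 6.66 and 7.68 on the ATF6aKO arrays, 6.48 and 6.25 on the ATF6bKO arrays and 7.27 and 6.37 on the WT arrays, and Sdhd, the other anchor, 7.28 and 7.6 on the ATF6aKO arrays, 7.31 and 7.11 on the ATF6bKO arrays and 7.82 and 7.22 on the WT arrays. For Sdha and Sdhd the WT arrays overlapped both knockouts, and no test was passed.

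Complex III held the largest called rise of any member in ATF6aKO. Uqcrh, the hinge protein that links cytochrome c1 to cytochrome c, measured 10.75 and 11.26 on the ATF6aKO arrays, 10.43 and 9.6 on the ATF6bKO arrays and 8.71 and 7.31 on the WT arrays. The genotypes did not overlap, although the WT arrays lay more than 1 log2 unit apart. Uqcrh rose by 3.0 ± 0.46 in ATF6aKO, a 7.98-fold difference (SE; limma adjusted p = 0.00259), and by 2.01 ± 0.46 in ATF6bKO (adjusted p = 0.0134). A call in ATF6bKO was not made without ATF6bKO replicate 1, at 1.59. The other probe of Uqcrh gave 2.74 and 1.96.

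Uqcr10, a small subunit of complex III, measured 9.93 and 10.12 on the ATF6aKO arrays, 9.42 and 8.94 on the ATF6bKO arrays and 8.27 and 8.0 on the WT arrays and rose by 1.89 ± 0.21 and 1.05 ± 0.21 (SE; limma adjusted p = 0.000913 and 0.00798). Between the knockouts it differed by 0.85 ± 0.21 (limma adjusted p = 0.625), the smallest p of complex III. Of its other probes, 1 gave 1.78 and 0.98 relative to WT and 1 gave -0.93 and -1.07, which was called lower in both. Uqcrc2, a core protein without catalytic function in mammals, measured 10.49 and 10.85 on the ATF6aKO arrays, 10.42 and 10.39 on the ATF6bKO arrays and 9.82 and 9.86 on the WT arrays and rose by 0.83 ± 0.18 and 0.56 ± 0.18 (SE; limma adjusted p = 0.00859 and 0.0404), the second of these lost without either ATF6bKO array (0.55 and 0.58) or either WT array (0.55 and 0.58).

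Of the remaining subunits of complex III, Uqcrc1 and Uqcrq each had a called fall and the others no call. Uqcrc1, the other core protein, measured 7.67 and 7.95 on the ATF6aKO arrays, 7.83 and 8.1 on the ATF6bKO arrays and 8.8 and 8.38 on the WT arrays and fell by 0.78 in ATF6aKO on the log2 scale (limma adjusted p = 0.0211), with -0.63 ± 0.21 in ATF6bKO (adjusted p = 0.0506). The call in ATF6aKO was lost without ATF6aKO replicate 1, at -0.64, and without WT replicate 1, at -0.57. Uqcrfs1, the Rieske iron-sulphur protein that takes electrons from ubiquinol, measured 6.8 and 7.51 on the ATF6aKO arrays, 6.53 and 6.29 on the ATF6bKO arrays and 7.29 and 6.38 on the WT arrays, with WT overlapping both knockouts. Uqcrq measured 9.89 and 9.98 on the ATF6aKO arrays, 9.62 and 9.21 on the ATF6bKO arrays and 10.98 and 10.04 on the WT arrays. It was called lower in ATF6bKO, -1.09 ± 0.3 (SE; limma adjusted p = 0.0265), but its other probe gave 0.34 there and was called higher in ATF6aKO, at 1.01, and the call was lost without WT replicate 1, at -0.62, or either ATF6bKO array, at -1.3 and -0.89. Uqcrb and Uqcr11 had differences between -0.06 and 0.42 from WT, with no call.

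Complex IV combines subunits used in most tissues with paralogues that muscle, lung or testis are known to prefer. Cox5b, a zinc-binding subunit with a single form, measured 9.25 and 9.5 on the ATF6aKO arrays, 9.13 and 8.83 on the ATF6bKO arrays and 7.64 and 6.8 on the WT arrays. Both knockouts were above WT, by 2.16 ± 0.28 in ATF6aKO and 1.76 ± 0.28 in ATF6bKO (SE; limma adjusted p = 0.00147 and 0.00338), the largest called rises of complex IV. Its partner Cox5a measured 7.73 and 8.63 on the ATF6aKO arrays, 7.38 and 7.4 on the ATF6bKO arrays and 8.26 and 7.12 on the WT arrays and overlapped between WT and each knockout.

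The subunit 7a family split by form. Cox7a2l, which is known to join complexes III and IV and is a shortened form in C57BL/6J mice, measured 11.24 and 11.38 on the ATF6aKO arrays, 10.91 and 10.69 on the ATF6bKO arrays and 9.46 and 9.27 on the WT arrays. The 3 genotypes did not overlap for it, and it rose by 1.94 ± 0.17 in ATF6aKO and 1.44 ± 0.17 in ATF6bKO (SE; limma adjusted p = 0.000622 and 0.00137). A second of its probes gave 1.47 and 1.13, and another -0.24 and -0.19. Cox7a2, the widespread form, measured 9.18 and 10.43 on the ATF6aKO arrays, 8.82 and 8.21 on the ATF6bKO arrays and 8.57 and 7.33 on the WT arrays and was called higher in ATF6aKO at 1.86 ± 0.5 (SE; limma adjusted p = 0.0211), a call lost without ATF6aKO replicate 2, at 1.24. Cox7a1, the heart and skeletal muscle form, measured 7.55 and 7.19 on the ATF6aKO arrays, 7.41 and 7.52 on the ATF6bKO arrays and 8.65 and 8.57 on the WT arrays. It was called lower in both knockouts, at -1.24 ± 0.18 and -1.15 ± 0.18 (SE; limma adjusted p = 0.00205 and 0.0032), and the knockouts overlapped each other.

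The other muscle forms had their highest arrays in WT too. Cox6a2 measured 7.49 and 7.49 on the ATF6aKO arrays, 7.52 and 7.78 on the ATF6bKO arrays and 8.18 and 8.74 on the WT arrays and was called lower in ATF6aKO, -0.97 ± 0.22, and in ATF6bKO, -0.81 ± 0.22 (SE; limma adjusted p = 0.0104 and 0.0229). Cox8b measured 7.78 and 7.24 on the ATF6aKO arrays, 7.62 and 7.84 on the ATF6bKO arrays and 8.11 and 8.49 on the WT arrays and was called lower in ATF6aKO alone of the knockouts, -0.79 ± 0.23 (SE; limma adjusted p = 0.0303), with -0.57 ± 0.23 in ATF6bKO (adjusted p = 0.0935). These calls lost significance without single arrays: Cox6a2 without ATF6aKO replicate 2 (-0.97) and, in ATF6bKO, without either ATF6bKO array (-0.69 and -0.94) or WT replicate 2 (-0.54), and Cox8b without ATF6aKO replicate 2 (-0.51) or WT replicate 2 (-0.6). Of 14 skeletal muscle markers, 13 were well above background on all 6 arrays, with Myh1 the exception, and their summed intensity was 4350 to 5800 in ATF6aKO, 4050 to 5130 in ATF6bKO and 4070 to 4350 in WT. In ATF6aKO against WT 2 of these markers were called higher and 4 lower. Their part in the muscle-form differences was not tested.

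The widespread partners of those forms passed no test on their brightest probes. Cox6a1 measured 9.31 and 9.88 on the ATF6aKO arrays, 8.27 and 7.54 on the ATF6bKO arrays and 10.26 and 8.37 on the WT arrays, and Cox8a measured 9.7 and 10.23 on the ATF6aKO arrays, 9.22 and 8.89 on the ATF6bKO arrays and 10.62 and 9.13 on the WT arrays. In both genes WT replicate 1 was the highest of the 6 arrays and the ATF6aKO arrays lay above the ATF6bKO arrays, by 1.69 ± 0.56 for Cox6a1 and 0.91 ± 0.44 for Cox8a (SE; limma adjusted p = 0.688 and 0.858). A dimmer probe of Cox8a was called higher in ATF6aKO relative to WT, at 1.39 (limma adjusted p = 0.00174). It gave 0.57 in ATF6bKO with no call, and the brighter probe gave 0.09 and -0.82.

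Subunit 6b, which bridges the monomers of the complex IV dimer, had opposite calls for its forms. Cox6b1, the widespread form, measured 9.91 and 10.04 on the ATF6aKO arrays, 9.78 and 9.59 on the ATF6bKO arrays and 8.46 and 8.3 on the WT arrays and rose by 1.59 ± 0.17 in ATF6aKO and 1.3 ± 0.17 in ATF6bKO (SE; limma adjusted p = 0.000795 and 0.00168). Cox6b2, the testis form, measured 8.37 and 8.12 on the ATF6aKO arrays, 8.33 and 8.97 on the ATF6bKO arrays and 9.8 and 10.23 on the WT arrays and fell by 1.77 and 1.37 on the log2 scale (limma adjusted p = 0.00204 and 0.00606), the largest called fall of any member in ATF6aKO. No array of the knockouts overlapped WT in either gene. Of 5 germ cell markers, all were well above background on all 6 arrays, and 3 were called lower in ATF6aKO against WT. The testis form Cox8c measured 6.73 and 6.73 on the ATF6aKO arrays, 7.07 and 6.82 on the ATF6bKO arrays and 6.28 and 6.65 on the WT arrays and passed no test. Whether such probes measure their named genes in cartilage was not tested.

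The WT arrays lay more than 1 log2 unit apart in both forms of subunit 4. Cox4i1, the widespread form, measured 7.89 and 8.45 on the ATF6aKO arrays, 7.47 and 7.16 on the ATF6bKO arrays and 10.03 and 8.41 on the WT arrays and was called lower in ATF6bKO, -1.9 ± 0.47 (SE; limma adjusted p = 0.0175), the largest called fall there, but this was lost without either ATF6bKO array, at -2.06 and -1.75. Its ATF6aKO arrays overlapped WT. Cox4i2, the lung and low-oxygen form, measured 8.33 and 8.15 on the ATF6aKO arrays, 8.31 and 8.28 on the ATF6bKO arrays and 8.72 and 6.21 on the WT arrays, so that the WT arrays lay both above and below every knockout array. Leaving out WT replicate 1 gave called rises of 2.03 and 2.08 for Cox4i2 in the knockouts.

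Cox6c and Cox7b, small subunits of complex IV, were called in ATF6aKO. Cox6c measured 8.85 and 9.73 on the ATF6aKO arrays, 8.39 and 7.94 on the ATF6bKO arrays and 8.36 and 7.63 on the WT arrays and rose by 1.3 ± 0.35 in ATF6aKO (SE; limma adjusted p = 0.0211), with 1.13 ± 0.35 between the knockouts (adjusted p = 0.669), the smallest p of complex IV. Cox7b measured 9.78 and 10.36 on the ATF6aKO arrays, 9.3 and 8.82 on the ATF6bKO arrays and 9.24 and 8.32 on the WT arrays and rose by 1.29 ± 0.34 in ATF6aKO (SE; limma adjusted p = 0.0197). Both calls were lost without ATF6aKO replicate 2, at 0.85 for Cox6c and 1.0 for Cox7b, and that of Cox6c also without WT replicate 2, at 0.93. Cox7c differed from WT by -0.32 and -0.22 on its brightest probe with no call, and by 1.93 and 0.9 and by 1.59 and 0.59 on its other probes. Both of these other probes were called higher in ATF6aKO, and neither was called in ATF6bKO.

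**Figure D4:**
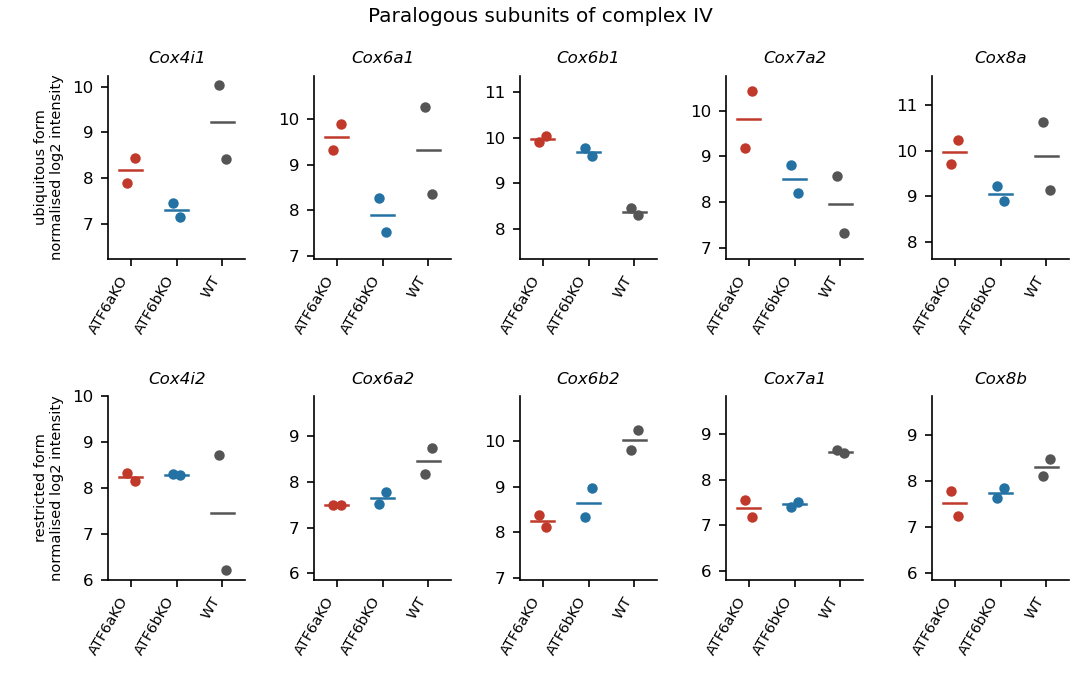
Normalised log2 intensity of 5 pairs of complex IV paralogues, with the widespread form above and the tissue-restricted form below. Points are arrays and lines are genotype means (n = 2), and every panel spans 4 log2 units. WT lies above both knockouts in Cox6a2, Cox6b2, Cox7a1 and Cox8b and below them in Cox6b1.

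Complex V had the highest share of members with the ATF6aKO arrays above the ATF6bKO arrays. Atp5l, subunit g of the membrane part, measured 12.57 and 12.73 on the ATF6aKO arrays, 12.48 and 12.44 on the ATF6bKO arrays and 10.47 and 10.32 on the WT arrays, with the ATF6aKO arrays highest and WT lowest. It rose by 2.25 ± 0.16 in ATF6aKO and 2.06 ± 0.16 in ATF6bKO (SE; limma adjusted p = 0.000463 and 0.000597). All 5 of its probes were called higher in ATF6aKO, at 1.62 to 2.55, and their differences in ATF6bKO were 1.52 to 2.29. The Atp5l window above held the NRF1 string and the ETS string at 2 places. Atp5k, subunit e beside it, measured 9.59 and 9.96 on the ATF6aKO arrays, 9.53 and 9.56 on the ATF6bKO arrays and 8.39 and 8.27 on the WT arrays and rose by 1.45 ± 0.18 and 1.22 ± 0.18 (SE; limma adjusted p = 0.00129 and 0.00261), while its other probe gave 0.97 and, with no call, 0.38.

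The catalytic head of complex V was called higher in ATF6aKO for its alpha and beta subunits. Atp5b, the beta subunit, measured 8.37 and 9.12 on the ATF6aKO arrays, 7.86 and 6.74 on the ATF6bKO arrays and 7.51 and 6.54 on the WT arrays. Its log2 difference from WT was 1.72 ± 0.45 in ATF6aKO (SE; limma adjusted p = 0.0193) and 0.28 ± 0.45 in ATF6bKO (adjusted p = 0.656). Atp5a1, the alpha subunit, measured 9.02 and 9.45 on the ATF6aKO arrays, 8.15 and 7.72 on the ATF6bKO arrays and 8.24 and 7.09 on the WT arrays, with differences of 1.57 ± 0.37 and 0.27 ± 0.37 (SE; limma adjusted p = 0.0123 and 0.587). For both subunits the ATF6aKO arrays were the highest and ATF6bKO overlapped WT. Atp5c1, the gamma subunit of the central stalk, measured 8.59 and 8.64 on the ATF6aKO arrays, 8.49 and 8.71 on the ATF6bKO arrays and 8.68 and 8.88 on the WT arrays and passed no test, but its dimmer probe was called higher in ATF6aKO, at 0.81 (limma adjusted p = 0.0116), with 0.19 in ATF6bKO. Without ATF6aKO replicate 2 the calls of Atp5b and Atp5a1 were lost, at 1.34 and 1.36.

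Subunit c, whose ring turns with the proton flow, is made from 3 genes that encode the same mature peptide. Atp5g3 measured 8.0 and 9.34 on the ATF6aKO arrays, 7.25 and 6.79 on the ATF6bKO arrays and 7.64 and 6.41 on the WT arrays and rose by 1.64 ± 0.51 in ATF6aKO (SE; limma adjusted p = 0.0342), a call lost without ATF6aKO replicate 2, at 0.97, or WT replicate 2, at 1.02. Atp5g1 measured 10.19 and 10.29 on the ATF6aKO arrays, 9.71 and 9.75 on the ATF6bKO arrays and 10.22 and 10.58 on the WT arrays and was called lower in ATF6bKO, -0.67 ± 0.18 (SE; limma adjusted p = 0.0231), a call lost without either ATF6bKO array (-0.65 and -0.69) or WT replicate 2 (-0.49). Atp5g2 measured 10.40 and 10.53 on the ATF6aKO arrays, 10.07 and 10.09 on the ATF6bKO arrays and 10.46 and 10.23 on the WT arrays with no call on its brightest probe. Its other probe was called higher in both knockouts, at 1.77 and 1.16 relative to WT. The ATF6aKO arrays lay above the ATF6bKO arrays in all 3 genes.

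Atp5o, which couples the head to the outer stalk, measured 8.72 and 8.96 on the ATF6aKO arrays, 7.97 and 7.85 on the ATF6bKO arrays and 8.55 and 8.23 on the WT arrays and had the smallest p of any member between the knockouts. That difference was 0.93 ± 0.18 (SE; limma adjusted p = 0.625). ATF6aKO lay above WT and ATF6bKO below it, by 0.45 ± 0.18 and -0.48 ± 0.18 (SE), and neither was called. Atp5md, a small membrane subunit that stabilises dimers, measured 10.41 and 11.24 on the ATF6aKO arrays, 9.82 and 9.4 on the ATF6bKO arrays and 9.16 and 8.34 on the WT arrays and rose by 2.08 ± 0.35 in ATF6aKO (SE; limma adjusted p = 0.00356). Atp5h, subunit d of the outer stalk, was called higher in both knockouts, at 1.4 ± 0.23 and 1.0 ± 0.23 (SE), while its other probe gave 0.52 and 0.42 with no call.

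Atp5j2, subunit f, was the complex V member that fell in ATF6aKO. It measured 10.09 and 9.68 on the ATF6aKO arrays, 9.98 and 9.91 on the ATF6bKO arrays and 10.69 and 10.59 on the WT arrays, with WT above all 4 knockout arrays, and differed by -0.76 ± 0.19 in ATF6aKO and -0.7 ± 0.19 in ATF6bKO (SE; limma adjusted p = 0.0146 and 0.0225). Its other probe gave 0.24 and -0.21, and the call was lost with the mean of both, at -0.26 and -0.45. Without ATF6aKO replicate 2 the difference in ATF6aKO was -0.55 and not called, and in ATF6bKO the call was lost without either ATF6bKO array, at -0.73 and -0.66, or WT replicate 1, at -0.65. The other members of complex V, Atp5mpl, Atp5pb, Atp5j, Atp5d and Atp5e, ranged from -0.05 to 1.29 in ATF6aKO and from -0.86 to 0.08 in ATF6bKO with no call. In Atp5d, the delta subunit of complex V, the WT arrays measured 9.24 and 5.9, a wider gap than any of its differences between genotypes.

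Of 13 catalytic and core subunits of complexes I, III and V, 5 were called higher and 1 lower in ATF6aKO relative to WT. Over all genes the shares were 20.3% and 22.3%. In ATF6bKO 3 of the 13 were called higher and 0 lower, beside 17.3% and 20.3% of all genes. The medians were 0.32 and -0.19. Between the knockouts 11 of the 13 were positive, with a median of 0.41, beside 0.48 over all members.

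Of the members, 22 had more than 1 kept probe. Their 29 dimmer probes took no part in the counts above and share with the brightest probes their arrays and their RNA. Between the knockouts 26 of the 29 were higher in ATF6aKO, with a median log2 difference of 0.4, and the 22 brightest probes had 20 and 0.46. All probes of a gene had the same sign in 17 of 22 genes between the knockouts. Relative to WT this held for 11 genes in ATF6aKO and 7 in ATF6bKO, and calls in opposite directions occurred in 2 and 1 genes.

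**Figure D5:**
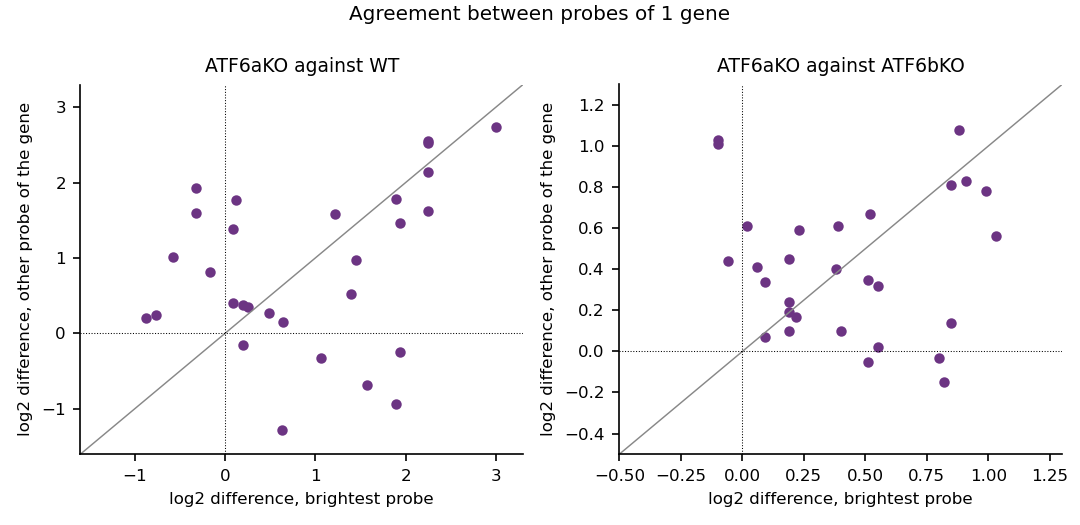
Log2 difference of each dimmer probe against that of the brightest probe of the same gene (29 probes of 22 genes), for ATF6aKO against WT (left) and ATF6aKO against ATF6bKO (right). The line marks equal values. On the left no point lies in the lower left quadrant, and on the right 26 of 29 dimmer probes are above 0.

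Genes that serve these complexes without matching the symbol rule were counted in 4 lists. Among assembly factors 11 of 42 were called higher and 9 lower in ATF6aKO, and 9 and 11 in ATF6bKO, beside 20.3% and 22.3% of all genes in ATF6aKO and 17.3% and 20.3% in ATF6bKO. Ubiquinone synthesis, cytochrome c and other carrier genes had 3 of 19 higher and 5 lower in ATF6aKO, and 3 and 4 in ATF6bKO. For the tricarboxylic acid cycle and pyruvate dehydrogenase the counts were 3 of 21 higher and 4 lower, and 2 and 5. For mitochondrial biogenesis they were 4 of 17 and 3, and 4 and 3. Between the knockouts their median log2 differences were 0.04, 0.1, 0.18 and 0.02 in that order, and both ATF6aKO arrays exceeded both ATF6bKO arrays in 10 of 42, 9 of 19, 11 of 21 and 3 of 17 genes. Over all genes that share was 20.1%. In no list was a gene called between the knockouts.

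Ppargc1a, the coactivator PGC-1alpha of mitochondrial biogenesis, measured 10.58 and 10.92 on the ATF6aKO arrays, 10.88 and 10.82 on the ATF6bKO arrays and 8.08 and 8.07 on the WT arrays. It rose by 2.67 ± 0.17 in ATF6aKO and 2.77 ± 0.17 in ATF6bKO (SE; limma adjusted p = 0.000463 and 0.000534), and its knockout arrays did not separate by genotype. Nrf1, whose site part was searched above, measured 9.59 and 9.57 on the ATF6aKO arrays, 9.54 and 9.42 on the ATF6bKO arrays and 8.72 and 8.79 on the WT arrays and was called higher in both, at 0.83 and 0.73. Tfam, which packages and transcribes mitochondrial DNA, measured 8.96 and 9.15 on the ATF6aKO arrays, 9.43 and 9.15 on the ATF6bKO arrays and 8.34 and 8.3 on the WT arrays and was called higher in both, at 0.74 and 0.97, but the mean of its probes gave 0.11 and 0.15 with no call. Polrmt, the mitochondrial RNA polymerase, and Pprc1, a relative of Ppargc1a, fell in both, at -1.33 and -1.08 and at -1.43 and -1.05.

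Of the assembly factors, Lrpprc, which stabilises mitochondrial messenger RNA, measured 9.1 and 8.91 on the ATF6aKO arrays, 8.96 and 8.96 on the ATF6bKO arrays and 7.18 and 7.11 on the WT arrays, and Sco1, which delivers copper to complex IV, measured 9.23 and 9.76 on the ATF6aKO arrays, 9.41 and 9.64 on the ATF6bKO arrays and 7.52 and 7.58 on the WT arrays. They rose by 1.86 and 1.95 in ATF6aKO and by 1.81 and 1.98 in ATF6bKO. Cox16 and Cox19, also complex IV assembly factors, fell by 1.38 and 1.37 on the log2 scale in ATF6aKO and by 1.4 and 1.53 in ATF6bKO, and with the mean of its probes Cox16 lost both calls, at -0.22 and -0.57. Cyc1, cytochrome c1 of complex III and a subunit outside the symbol rule, measured 7.36 and 7.48 on the ATF6aKO arrays, 7.33 and 7.31 on the ATF6bKO arrays and 8.58 and 8.74 on the WT arrays. It fell by 1.24 in ATF6aKO and 1.34 in ATF6bKO on the log2 scale (limma adjusted p = 0.00139 and 0.00133), while its neighbour Uqcrh rose in both.

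Electron carriers and cycle enzymes were mixed in the same way. Etfa, of the electron transfer flavoprotein, and Gpd2, the glycerol phosphate dehydrogenase of the inner membrane, rose by 1.25 and 1.0 in ATF6aKO and by 1.23 and 0.77 in ATF6bKO. Coq4 and Coq7, of ubiquinone synthesis, had differences of -0.98 and -0.91 in ATF6aKO and -0.88 and -1.08 in ATF6bKO, called lower in both. Fh1, fumarase, rose by 1.35 and 0.98. Idh3b, Cs and Pdk2, a subunit of isocitrate dehydrogenase, citrate synthase and a kinase that inhibits pyruvate dehydrogenase, were called lower in both knockouts, at -1.57, -0.66 and -0.76 in ATF6aKO and -1.48, -0.93 and -0.64 in ATF6bKO. Pdhb, of pyruvate dehydrogenase, was called higher in ATF6aKO at 1.02, and Dld, shared by several dehydrogenases, in ATF6bKO at 0.53. The call of Pdhb was lost without ATF6aKO replicate 2, at 0.69, and that of Dld without any single ATF6bKO or WT array, at 0.45 to 0.61.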

How the data were processed

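Growth plates of 3 genotypes were measured on 6 Agilent arrays. The deposited scanner files hold median spot intensity and median local background intensity, for which the submitters' processing notes name Agilent Feature Extraction 10.7.1.1. Knockout arrays were read in 2 channels set for Cy5 and WT arrays in 1 channel, per the file headers, so the red channel stood for knockouts. The authors' deposited value table holds log2 values whose knockout columns seem to follow the green channel, with unknown centring, and served only as an alternative.

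Here median intensities were background corrected (normexp, offset 50, limma 3.58.1, R 4.3.3), taken to log2 and quantile normalised, without control or outlier spots (288 probes). RefSeq accessions gave symbols to 26582 probes through a gene table of GRCm38.p6. Probes had to be well above background on 2 arrays of some genotype, and of several such probes the brightest represented the gene. All genes were fitted together (lmFit, eBayes) without a replicate block, with Benjamini-Hochberg adjustment and a threshold of 0.05. The procedure was tested on simulated data.

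Alternatives were 75th percentile scaling, the processed signal, the deposited table, the mean or every probe, stricter and no filters, a trended robust variance, a replicate block, each array left out and, between the knockouts, the knockout arrays alone. The alternatives for the count of members with separate knockout arrays were added after seeing the data. Members, lists, alternatives and the naming rule were chosen with earlier results of these data known. The rule named, per complex and comparison, the largest called rise and fall without overlap or the smallest p, plus all complex II subunits, members with paralogues, catalytic subunits, genes with opposite probes, and called genes of smallest p in the other lists. Levels were not compared between probes. The values of 1 member are not reported here, although counts and medians include it.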

Additional observations from a re-analysis of the deposited data

Results flagged for a closer look

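The knockout arrays were scanned in a green channel for which the labels name no dye. In that channel 69 of the 84 members (82.1%) were well above background on all 4 knockout arrays, beside 1752 of all 19122 genes tested (9.16%). By complex these were 30 of 38 members of complex I, 3 of 4 of complex II, 8 of 8 of complex III, 11 of 17 of complex IV and 17 of 17 of complex V. Across those 1752 genes alone, log2 green intensities correlated between the 4 arrays at r of 0.90 to 0.973. With the normalised red values of the same array they correlated at 0.219 to 0.318. Atp5b had green intensities of 305 and 280 in ATF6aKO and 405 and 277 in ATF6bKO, beside red intensities of 263 and 421 in ATF6aKO and 147 and 36.5 in ATF6bKO. In other members red was well above green. For Atp5l green measured 123 and 83.5 in ATF6aKO and 154 and 93 in ATF6bKO, and red 5511 and 6363 and 4756 and 4203. For Cox7a1 green measured 9 and 13.5 in ATF6aKO and 8.5 and 8 in ATF6bKO, and red 127 and 77 and 95.5 and 92. Col2a1, the main collagen of cartilage, had green intensities of 14 and 18.5 in ATF6aKO and 21 and 10 in ATF6bKO, beside red intensities of 33760 and 36094.5 in ATF6aKO and 20541 and 7421 in ATF6bKO. What the green channel holds was not tested. The knockout columns of the authors' deposited table seem to follow it, which was not tested either.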

How the results depend on the processing

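The replicate numbers were not taken to pair the arrays. Over all genes, differences between replicates 1 and 2 correlated at r = -0.156 between ATF6aKO and ATF6bKO, -0.074 between ATF6aKO and WT, and 0.197 between ATF6bKO and WT. Over the members these values were -0.37, -0.316 and 0.438. With a replicate block 31 members were called higher and 9 lower in ATF6aKO against WT, beside 19.2% and 20.5% of all genes. In ATF6bKO against WT 16 were called higher and 12 lower, beside 16.3% and 18.4%, and between the knockouts 0 were called. Leaving out each array in turn gave 23 to 49 called members, a median log2 difference of 0.19 to 0.79 and 23 to 42 called genes of the other lists in ATF6aKO against WT. In ATF6bKO against WT it gave 12 to 38, -0.33 to 0.14 and 18 to 41. Between the knockouts it gave 0 called members, medians of 0.32 to 0.58, and 61 to 70 members (31.5% to 38% of all genes) with the ATF6aKO arrays above the ATF6bKO arrays, a count that lay at 49 to 62 (16.1% to 21% of all genes) under the settings that kept all arrays. Without ATF6aKO replicate 2, 8 genes were called lower between the knockouts, none of them a member. Sdhb, Cox8b and Atp5g3 in ATF6aKO, and Ndufa2, Ndufa4 and Uqcrq in ATF6bKO, also lost their calls without an array of the genotype outside the comparison, at the same differences. The share of all genes called against WT also changed with the array left out. In each knockout it was lowest without the array whose removal gave the fewest called members and list genes. The low ends of these ranges are therefore not specific to the members. The high end of called members in ATF6bKO, without WT replicate 2, did not coincide with the highest share of all genes. The processed signal gave a median of 0.72 in ATF6aKO against WT.

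The deposited value table differed most. With it 74 members were called in ATF6aKO against WT, 73 higher and 1 lower, beside 36% and 14.8% of all genes. In ATF6bKO against WT 75 were called, 74 higher and 1 lower, beside 36.4% and 15.3%. The medians were 4.07 and 4.11 beside 0.85 over all genes, and -0.1 between the knockouts. Of the other lists, 62 genes were called in ATF6bKO. The sign turned there in 7 of the 41 called members in ATF6aKO and 10 of the 30 in ATF6bKO. Among the genes chosen by the naming rule the turned log2 differences in ATF6aKO against WT were Atp5j2 2.48, Coq4 1.1, Coq7 3.35, Cox19 1.4, Cox6a2 0.4, Cox7a1 1.25, Cs 6.05, Cyc1 4.25, Etfa -1.42, Gpd2 -0.5, Idh3b 0.5, Ndufb9 4.0, Pdk2 0.5, Polrmt 0.6, Ppargc1a -0.6, Pprc1 3.35, Sdhc 1.9 and Uqcrc1 3.65. In ATF6bKO against WT they were Atp5g1 3.35, Atp5j2 2.52, Coq4 1.3, Coq7 3.2, Cox19 2.5, Cox4i1 5.6, Cs 5.95, Cyc1 4.35, Etfa -0.34, Gpd2 -0.6, Idh3b 0.2, Ndufa2 4.1, Ndufa4 6.35, Ndufb9 4.1, Nrf1 -1.25, Polrmt 0.65, Ppargc1a -0.3, Pprc1 3.3, Sdhc 1.85, Tfam -0.4 and Uqcrq 3.12. Its knockout columns seem to follow the green channel, and if they do, these differences set another channel against WT. With the mean over probes Sdhb in ATF6aKO against WT was -0.32. The signal over background limits Atp5d, Atp5g3, Atp5j, Cox4i2, Ndufa8, Ndufs5, Ndufv1, Sdha and Uqcrfs1, each below it on 1 array of a genotype.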
